A study of Mus musculus with 4 samples.

Results

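The genes described here encode the enzymes that build and sulfate glycosaminoglycans in MC3T3-E1, an osteoblastic cell line established from mouse calvaria. They are a list of 40 symbols, found by matching the RefSeq accession of each array probe to a gene symbol, out of 22911 genes matched on the array. All 40 had a probe. Of these, 37 were well above background on at least 1 array and 36 on all 4, against 15933 and 14003 of the 22911 genes. Hs3st3b1, Chsy3 and Csgalnact1 did not reach well above background on any of the 4. The arrays compared cells given an inhibitor of glucosylceramide synthase, the enzyme that opens glycosphingolipid synthesis, with Control cells. The groups were Miglustat, an iminosugar, at 50 µM, D-PDMP at 10 µM, D-PPMP at 1.0 µM and Control, with 1 one-colour Agilent array each. Cells were treated for 4 days, replated and cultured for 24 h before RNA was taken. What the Control cells received in place of an inhibitor is not given in the sources used here. D-PDMP and D-PPMP share a phenyl-morpholino-propanol core and differ in the acyl chain, decanoyl in D-PDMP and palmitoyl in D-PPMP, and their doses differed.

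Glycosaminoglycans are long sugar chains that hang on proteoglycan core proteins or, for hyaluronan, stand free. Chains of heparan sulfate and of chondroitin or dermatan sulfate start on the same short linker on a serine of the core protein, are extended by paired polymerases and are then sulfated in the Golgi, while keratan sulfate sits on other linkages and hyaluronan is spun out at the plasma membrane without sulfation. In bone these chains bind growth factors, mineral and collagen, and the pattern of sulfate groups sets what they bind. The arrays measured mRNA, so they say nothing of chain length or sulfation.

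Levels are given as log2 of the scanner's processed signal minus the array's 75th percentile, and a ratio is the difference between the levels on 2 arrays. The error given beside a level or ratio is the one modelled by the scanner software for the spot, which does not cover differences between cultures. With 1 array per group there was no replicate and no test. A gene was counted as higher or lower at 1.5-fold or more (0.58 on the log2 scale) when it was well above background on both arrays. The share of probes well above background was 60.2% (Miglustat), 60.8% (D-PDMP) and 62.4% (D-PPMP), against 57.4% in Control. The 4 arrays lay on 1 slide, each group in its own position, and what is due to position cannot be told apart from what is due to the group. Of 8 osteoblast lineage markers, Runx2, Sp7, Spp1, Col1a1 and Col1a2 were well above background on all 4 arrays, Bglap on the D-PDMP and D-PPMP arrays alone, and Alpl and Ibsp on none. Of 4 markers each of macrophages, endothelium, adipocytes and skeletal muscle, Ptprc, Adgre1, Cdh5, Kdr, Tek, Plin1, Myod1, Myog and Ckm did not reach well above background on any of the 4. Cd68, Csf1r, Pecam1, Fabp4, Lep and Acta1 did on all 4, and Adipoq on the D-PPMP array alone. Pecam1, an endothelial marker with a dim spot, had ratios of 0.23, 0.60 and 0.61 with Miglustat, D-PDMP and then D-PPMP, and Acta1, a muscle actin at 4.19 in Control, of 0.13, -0.07 and 0.00. The macrophage markers Cd68 and Csf1r had ratios of 0.00, 0.09 and 0.24 and of 0.05, -0.24 and -0.23. Of 4 chondrocyte markers, 3, 2 and 2 were well above background with Miglustat, D-PDMP and D-PPMP, against 3 in Control, and Acan on no array. Their summed signal was 16517, 10344 and 9790 with the inhibitors in this order, against 12069 in Control, most of it Col2a1. The summed signal of the 8 osteoblast markers was 168339, 161520 and 152673 in this order, against 161858 in Control. The adipocyte markers Fabp4 and Lep had ratios of 0.51, 0.25 and 0.05 and of 0.37, 0.36 and 0.44. In a bulk culture, fewer cells with a transcript and less transcript per cell cannot be told apart.

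The 250 bases upstream of the annotated start are shown for Chst1, Chst2 and Has1, the members of the keratan sulfate and hyaluronan groups that had an entry, and for Hs6st1, a heparan sulfate sulfotransferase whose window had the highest G+C content of the members. The sequences are from RefSeq, build GRCm38.p6, written from the distal end to the base before the start. The windows are chr2:92600867-92601116 (+ strand) for Chst1, chr9:95407271-95407520 (- strand) for Chst2, chr17:17855189-17855438 (- strand) for Has1 and chr1:36068150-36068399 (+ strand) for Hs6st1. Capitals mark matches, on either strand, to 5 motifs. The GC box was searched as GGGCGG and the cyclic AMP response element, written CRE, as TGACGTCA. The EGR motif was searched as GCGNGGGCG, where N is any base. The AP-1 motif was taken as TGA and TCA with any base between them. The TATA box, named for its own letters, was searched as TATAAA.
Chst1: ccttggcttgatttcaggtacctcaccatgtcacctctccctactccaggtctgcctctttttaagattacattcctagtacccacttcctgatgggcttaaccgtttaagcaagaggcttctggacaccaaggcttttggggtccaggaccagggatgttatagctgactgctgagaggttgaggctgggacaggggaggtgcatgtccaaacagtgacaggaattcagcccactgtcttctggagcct
Chst2: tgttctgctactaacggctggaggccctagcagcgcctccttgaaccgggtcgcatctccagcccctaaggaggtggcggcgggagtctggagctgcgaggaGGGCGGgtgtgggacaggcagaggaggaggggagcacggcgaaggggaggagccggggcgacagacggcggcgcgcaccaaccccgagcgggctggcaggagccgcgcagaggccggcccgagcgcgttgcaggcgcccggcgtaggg
Has1: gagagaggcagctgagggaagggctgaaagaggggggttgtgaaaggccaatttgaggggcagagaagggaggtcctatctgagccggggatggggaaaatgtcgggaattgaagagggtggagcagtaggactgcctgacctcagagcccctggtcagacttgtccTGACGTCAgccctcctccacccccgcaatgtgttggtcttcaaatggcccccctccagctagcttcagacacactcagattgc
Hs6st1: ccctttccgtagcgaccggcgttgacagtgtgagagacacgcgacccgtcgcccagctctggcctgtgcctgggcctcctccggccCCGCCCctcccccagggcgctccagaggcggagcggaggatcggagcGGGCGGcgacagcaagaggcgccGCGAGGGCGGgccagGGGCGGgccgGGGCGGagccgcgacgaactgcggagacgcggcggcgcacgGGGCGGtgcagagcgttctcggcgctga
The Chst1 window held none of the 5 motifs. The Chst2 window held 1 GC box, and the Has1 window 1 cyclic AMP response element 83 to 76 bases before the start. Hs6st1 held 6 GC boxes and 1 EGR match, which overlaps a GC box. Of the 40 members, 32 had a promoter entry. Their G+C content had a median of 65.0% (48.0% to 76.4%), against 58.4% for the 12616 genes with an entry that were well above background on an array and 52.0% for all 27018 genes of the table. A GC box stood in 23 of the 32 windows (71.9%), against 52.1% of the genes above background and 32.9% of the table. Matches to the cyclic AMP response element were in 2 windows (6.25%), against 2.53% and 1.62%, to EGR in 4 (12.5%), against 7.7% and 4.65%, to the TATA box in 2 (6.25%), against 8.7% and 13%, and to AP-1 in 1 (3.12%), against 5.22% and 6.87%. A match describes letters in this window and is not a binding site.

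The list as a whole stayed close to Control with every inhibitor, and its largest differences lay in keratan sulfate sulfation, hyaluronan synthesis and 1 heparan sulfate sulfotransferase. With Miglustat, 1 of 37 measured members was at least 1.5-fold higher (Hs3st1) and 1 was lower (Chst1), where 1.57% and 1.11% of all 14171 genes measured were. With D-PDMP, 1 of 37 was higher (Hs3st1) and none lower, where 1.34% and 1.2% of 14154 genes were. With D-PPMP, 1 of 36 was higher (Has1) and none lower, where 2.27% and 1.18% of 14200 genes were. At least 2-fold higher was 1 member, Has1 with D-PPMP, where 0.303% of genes were, and none was 2-fold lower, where 0.204% were. With Miglustat and D-PDMP no member was 2-fold away, where 0.212% and 0.155% of genes were higher and 0.176% and 0.17% lower. Chst1 with Miglustat lay just short of that threshold. With 1 member per call, these shares do not set the list apart from all genes.

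Median ratios of the members were -0.05 (Miglustat), 0.01 (D-PDMP) and 0.01 (D-PPMP), and those of all genes measured -0.02, 0.00 and -0.01. The typical member was 0.11, 0.08 and 0.10 away from Control in either direction, and the typical gene 0.10, 0.09 and 0.10. Above Control by any amount were 15 of 37 members with Miglustat, where 44.5% of all genes were, 20 of 37 with D-PDMP, where 49.6% were, and 18 of 36 with D-PPMP, where 48.5% were. Within the error of their own ratio lay 30 of 37, 34 of 37 and 27 of 36 members, beside 80.5%, 81.7% and 77.4% of all genes. Over the 4 arrays, the gap between a member's highest and lowest level had a median of 0.20, as over all genes. It stayed under 1.5-fold for 33 of the 36 members well above background on all 4 arrays (91.7%), where it did for 90.7% of genes. The 3 comparisons share the Control array.

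**Figure D1:**
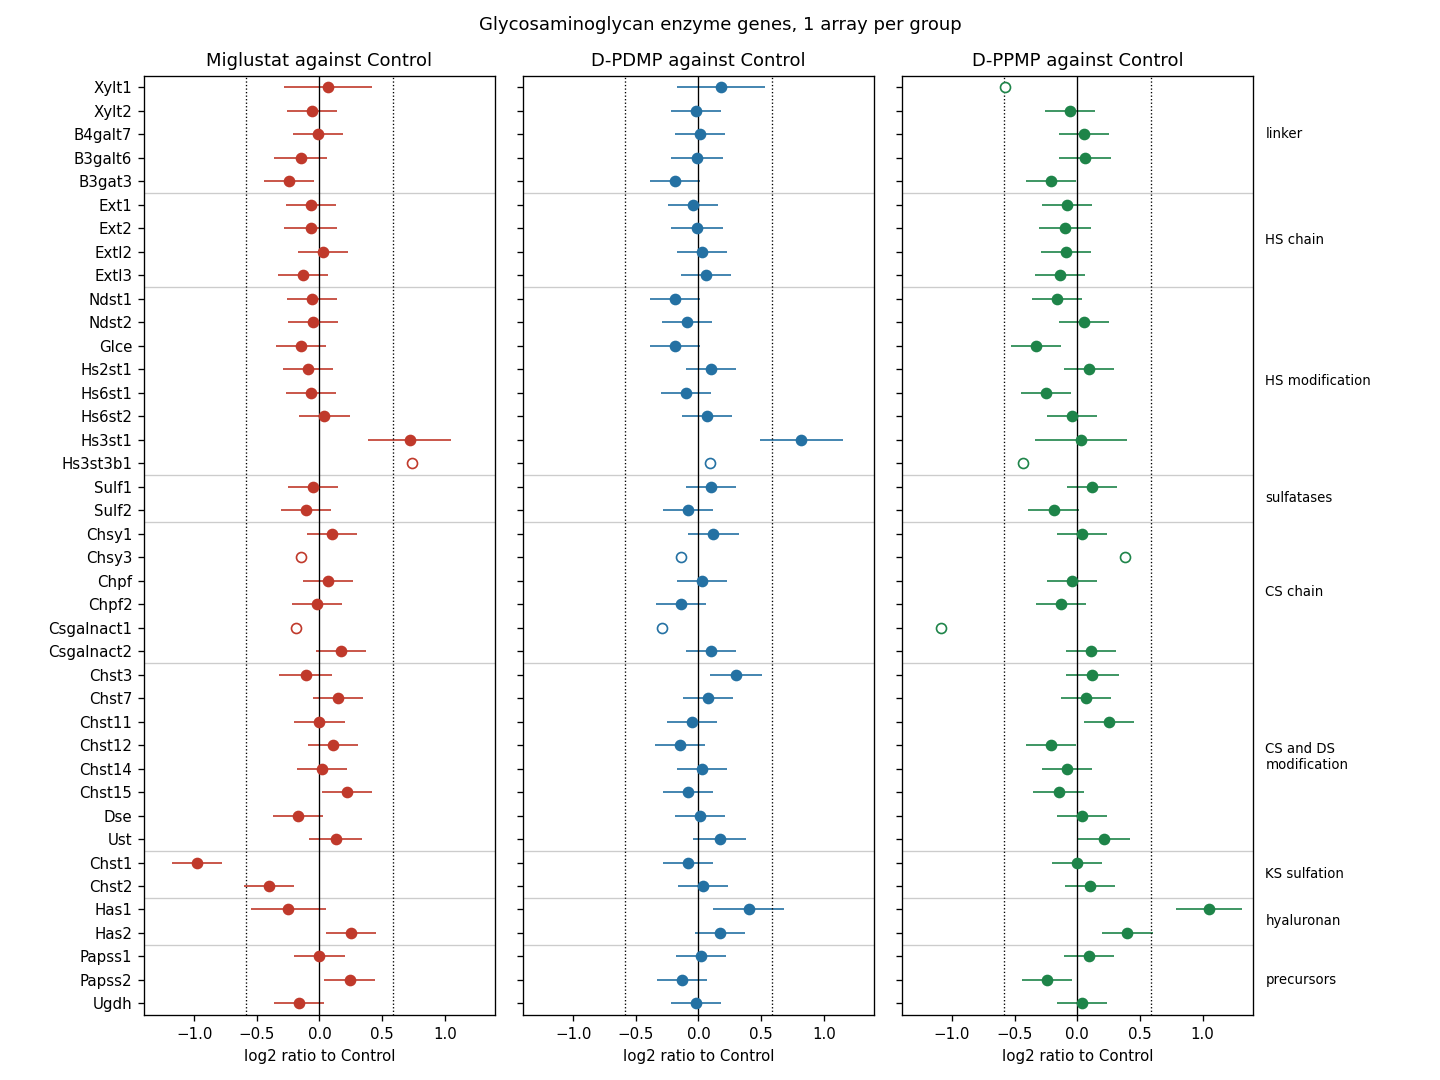
Log2 ratio to Control (horizontal axis) of the 40 genes, grouped by role, in 1 panel per inhibitor. Filled points with bars are ratios with the scanner software's error, open points are genes not well above background on both arrays, and dotted lines stand at 1.5-fold. Chst1 with Miglustat at -0.98 and Has1 with D-PPMP at 1.05 stand farthest from the centre line among the filled points.

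Transcripts of Chst1 and Chst2, the members grouped under keratan sulfate sulfation, were lowest with Miglustat. Chst1 encodes the sulfotransferase that puts sulfate on galactose in keratan sulfate. Its level was 2.27 in Miglustat cells, 3.16 in D-PDMP cells and 3.24 in D-PPMP cells, against 3.24 in Control, each ± 0.14. The processed signal was 917.4 ± 91.74 in Miglustat cells, 1693.4 ± 169.34 in D-PDMP cells and 1781.4 ± 178.14 in D-PPMP cells, against 1726.1 ± 172.61 in Control. The Miglustat array was low and the other 3 lay within 0.08 of each other. The ratio with Miglustat was -0.98 ± 0.20, or 1.97-fold below Control, and only 27 of the 14171 genes measured were as low or lower. At this level such distances were rare: of 8937 genes with an average level of 0 or more, 0.683% were at least 1.5-fold away from Control in either direction. The ratios of Chst1 with D-PDMP and D-PPMP were -0.08 ± 0.20 and 0.00 ± 0.20. Some markers of the osteoblast and chondrocyte lists also differed on the Miglustat array, with ratios of 0.74 for Sp7, -0.66 for Spp1 and 0.39 for Col2a1. The Sp7 spot was dim, at a level of -2.61 against -3.35 in Control. Other markers of these lists stayed within the error of their ratios, with Runx2 at -0.05, Col1a1 at 0.00 and Col1a2 at 0.03. Col9a1 at 0.06 and Matn3 at -0.18 did so too. The part of these markers in the Chst1 value was not tested.

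Chst2, which sulfates N-acetylglucosamine and so can serve keratan sulfate and selectin ligands, was lowest on the same array. It stood at 0.49 in Miglustat cells, 0.93 in D-PDMP cells and 0.99 in D-PPMP cells, against 0.89 in Control, each ± 0.14. The ratio with Miglustat was -0.40 ± 0.20, which is 1.32-fold lower and short of the 1.5-fold threshold, and 2.83% of genes were as low or lower. With D-PDMP and D-PPMP the ratios were 0.04 and 0.10. Each of these genes was read by 1 probe with 1 spot per array.

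**Figure D2:**
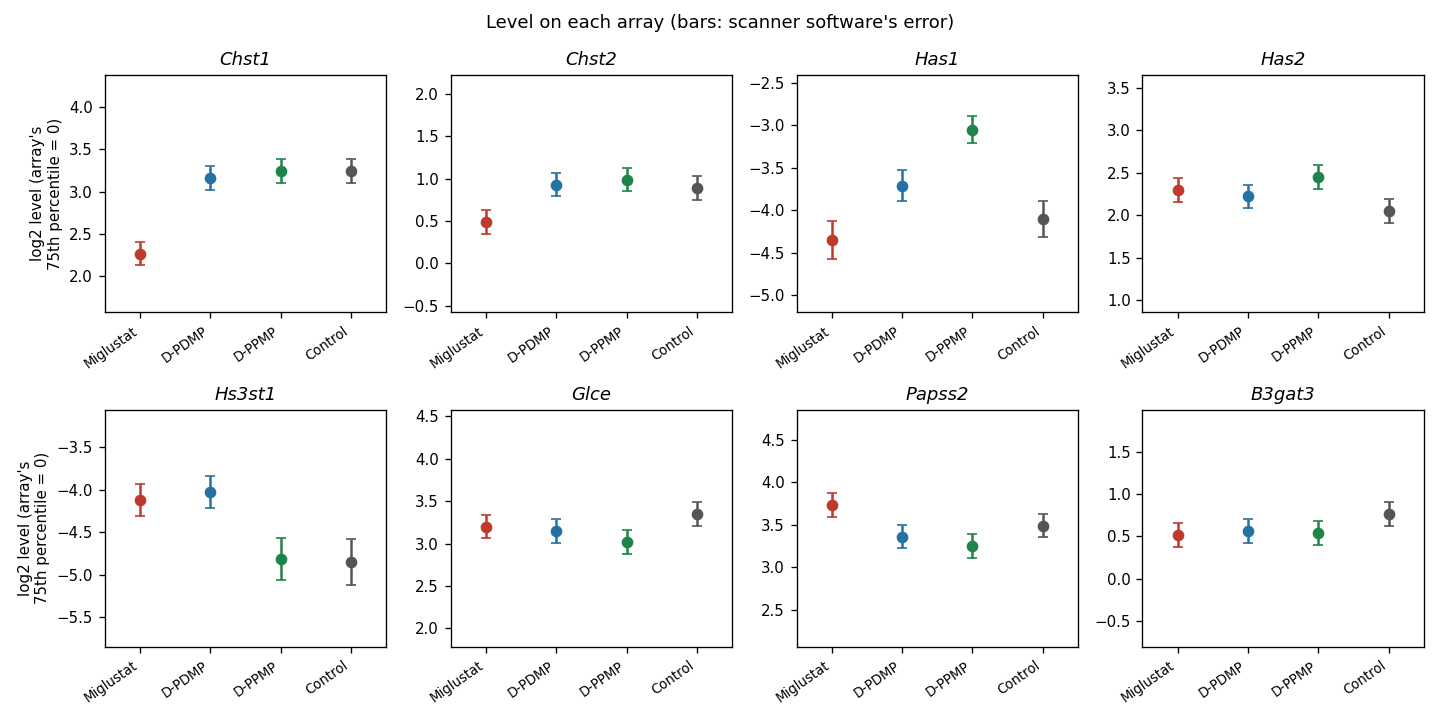
Log2 level (vertical axis, with the array's 75th percentile at 0) of 8 genes on the Miglustat, D-PDMP, D-PPMP and Control arrays, 1 point per array with the scanner software's error as a bar. Each panel spans the same range of log2 units. Chst1 and Chst2 are lowest with Miglustat, Has1 and Has2 are highest with D-PPMP, and Hs3st1 is higher with Miglustat and D-PDMP than on the other 2 arrays.

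Both measured hyaluronan synthases were highest with D-PPMP. Has2, the synthase that makes long hyaluronan in mesenchymal cells, stood at 2.30 in Miglustat cells, 2.22 in D-PDMP cells and 2.45 in D-PPMP cells, against 2.05 in Control, each ± 0.14. Control was the lowest array. The ratios were 0.25 ± 0.20, 0.17 ± 0.20 and 0.40 ± 0.20, the last of them 1.32-fold, and 5.36% of genes were as high or higher with D-PPMP. Some markers of other lists also differed on the D-PPMP array, with ratios of 0.61 for Pecam1, -0.44 for Sp7, 0.38 for Spp1 and -0.35 for Col2a1. The spots of Pecam1 and Sp7 were dim, at levels of -3.12 and -3.79, against -3.73 and -3.35 in Control. The osteoblast markers Runx2, Col1a1 and Col1a2 stayed within the error of 0.20, at -0.11, -0.13 and -0.18. The part of these markers in the values of Has1 and Has2 was not tested.

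Has1, another synthase of the family, stood at -4.35 ± 0.22 in Miglustat cells, -3.71 ± 0.18 in D-PDMP cells and -3.05 ± 0.16 in D-PPMP cells, against -4.10 ± 0.21 in Control. Its processed signals were low, at 9.4 ± 1.43, 14.5 ± 1.80 and 22.7 ± 2.50 with the inhibitors in that order, against 10.6 ± 1.54 in Control. The ratio with D-PPMP was 1.05 ± 0.26, or 2.07-fold, and 36 of 14200 genes were as high or higher. With D-PDMP it was 0.40 ± 0.28 and with Miglustat -0.25 ± 0.30. At such levels large ratios were common: of 2166 genes with an average level below -3, 14.7% were at least 1.5-fold away from Control with D-PPMP. With normexp background correction, which adds an offset of 50 to each signal and so shrinks the ratios of dim spots, the D-PPMP ratio of Has1 was 0.21. With quantile and cyclic loess normalization it was 0.87 and 0.81, past 1.5-fold and short of 2-fold.

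Transcripts of the 4 members grouped under the heparan sulfate chain stayed close to Control. Extl3 encodes the transferase that commits the linker to heparan sulfate, and Ext1 and Ext2 form the polymerase. Extl3 stood at 4.20 in Miglustat cells, 4.39 in D-PDMP cells and 4.19 in D-PPMP cells, against 4.33 in Control, each ± 0.14. Ext2 stood at -2.02, -1.95 and -2.04 in the same order, against -1.94 in Control, each ± 0.15. All 12 ratios of Ext1, Ext2, Extl2 and Extl3 lay between -0.14 and 0.06, and each was within its own error. Over all genes, 80.5%, 81.7% and 77.4% were within theirs with Miglustat, D-PDMP and then D-PPMP, so this does not set the group apart. Among the 4 genes the widest gap between arrays was 0.21, in Extl3.

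The modifying enzymes of heparan sulfate act on the growing chain, where Ndst1 and Ndst2 come first and replace acetyl groups with sulfate. Glce, the epimerase that turns glucuronic into iduronic acid, stood at 3.20 in Miglustat cells, 3.15 in D-PDMP cells and 3.02 in D-PPMP cells, against 3.35 in Control, each ± 0.14. On this probe Control was highest and D-PPMP lowest. The ratios were -0.15, -0.19 and -0.33, each ± 0.20, so that D-PPMP alone lay beyond the error, at 1.25-fold below Control. The other 2 probes of Glce, both dimmer, were at -0.16, -0.19 and -0.32 and at 0.08, -0.12 and -0.32, so that on the last of them Miglustat and not Control was highest. Hs6st1, whose promoter window held 6 GC boxes, was at -0.07, -0.10 and -0.25, and Hs6st2, its relative, at 0.04, 0.07 and -0.04. Ndst1 was at -0.06, -0.19 and -0.16, Ndst2 at -0.05, -0.09 and 0.05, and Hs2st1, which sulfates the uronic acid, at -0.09, 0.10 and 0.09.

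Hs3st1, which makes the rare sulfate of the antithrombin-binding site, was the member of this group past 1.5-fold. Its level was -4.12 ± 0.19 in Miglustat cells, -4.03 ± 0.19 in D-PDMP cells and -4.82 ± 0.25 in D-PPMP cells, against -4.85 ± 0.27 in Control. The processed signals were 11.0 ± 1.45, 11.6 ± 1.51 and 6.7 ± 1.17 with the inhibitors in that order, against 6.3 ± 1.18 in Control, so the spot was dim on every array. The ratios were 0.72 ± 0.33 with Miglustat, or 1.65-fold, 0.82 ± 0.33 with D-PDMP, or 1.76-fold, and 0.03 ± 0.37 with D-PPMP. Of genes with an average level below -3, 10.6% were at least 1.5-fold away from Control with Miglustat and 11.5% with D-PDMP. With normexp correction the first 2 ratios of Hs3st1 were 0.04 and 0.01. The other probe of the gene did not reach well above background on any array, and the mean of both probes gave 0.28 and 0.33.

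Outside the cell, Sulf1 and Sulf2 trim sulfate from heparan sulfate and so alter growth factor binding. Sulf1 stood at 1.55 in Miglustat cells, 1.71 in D-PDMP cells and 1.73 in D-PPMP cells, against 1.61 in Control, each ± 0.14. Sulf2 stood at 4.82, 4.85 and 4.74 in that order, against 4.93 in Control, each ± 0.14. As with most genes measured, neither gene left the error of its ratio with any inhibitor, the widest ratio being -0.19 for Sulf2 with D-PPMP.

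The linker that carries both heparan and chondroitin sulfate is made by 5 enzymes. B3gat3, which adds the glucuronic acid that completes it, stood at 0.52 in Miglustat cells, 0.56 in D-PDMP cells and 0.54 in D-PPMP cells, against 0.76 in Control, each ± 0.14. Control was the highest array and the inhibitor arrays lay within 0.05 of each other. The ratios were -0.24, -0.19 and -0.21, each ± 0.20, and 8.1%, 11.3% and 10.5% of genes were as low or lower in the 3 comparisons. The 3 ratios share the Control value. Xylt2, which starts the linker, was at -0.06, -0.02 and -0.06. The galactosyltransferases B4galt7 and B3galt6 lay between -0.15 and 0.06.

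Xylt1, the other xylosyltransferase, was near the background. Its level was -4.61 ± 0.24 in Miglustat cells, -4.51 ± 0.23 in D-PDMP cells and -5.26 ± 0.33 in D-PPMP cells, against -4.69 ± 0.26 in Control. On the D-PPMP array it was not well above background, and the ratio was -0.58 ± 0.42, or 1.49-fold below Control. That fold is not a minimum. The dim probe's own signal was above the lowest signal well above background on that array, so the bound equals the ratio.

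Chondroitin chains are started by the Csgalnact enzymes and extended by Chsy1, Chsy3, Chpf and Chpf2. Csgalnact2 stood at 2.28 in Miglustat cells, 2.22 in D-PDMP cells and 2.23 in D-PPMP cells, against 2.12 in Control, each ± 0.14. Control was lowest, and the ratios of 0.17, 0.10 and 0.11 were within the error of 0.20. Chpf2 stood at 1.93, 1.81 and 1.82 in that order, against 1.95 in Control, each ± 0.14. Chsy1, at 0.10, 0.12 and 0.04, and Chpf, at 0.07, 0.03 and -0.04, were as close to Control. All 4 measured genes of this group lay within the error of their ratios with each inhibitor. So did 80.5%, 81.7% and 77.4% of all genes with Miglustat, D-PDMP and then D-PPMP, and the count does not set the group apart.

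Sulfation and epimerisation of chondroitin and dermatan sulfate involve 8 members, none of them 1.5-fold away from Control with any inhibitor. Over all genes 2.68%, 2.54% and 3.44% were that far away in either direction with Miglustat, D-PDMP and then D-PPMP, so a count of 0 in 8 does not set the group apart. Chst3 sulfates N-acetylgalactosamine in chondroitin and is mutated in a human skeletal dysplasia. It stood at -1.26 in Miglustat cells, -0.84 in D-PDMP cells and -1.03 in D-PPMP cells, against -1.15 in Control, each ± 0.15. D-PDMP was the highest array, with a ratio of 0.30 ± 0.21. The other probe of Chst3 did not reach well above background on any array, and the mean of both probes gave 0.08 with D-PDMP. Chst11, a chondroitin sulfotransferase needed for cartilage growth, stood at -0.16, -0.21 and 0.09 in that order, against -0.16 in Control, each ± 0.14. The D-PPMP array was the highest, at a ratio of 0.25 ± 0.20. A dimmer probe of Chst11 was at -0.05, 0.51 and 0.30, which differs from the brighter probe by 0.56 with D-PDMP.

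For Chst12 and Chst15, Miglustat was the highest array and D-PPMP the lowest. Chst12, related to Chst11, was at 0.11, -0.15 and -0.21, each ± 0.20. Chst15, which adds a further sulfate to an already sulfated residue, was at 0.22, -0.08 and -0.15, each ± 0.20. Chst14, the dermatan sulfotransferase, was at 0.02, 0.03 and -0.08, and Dse, the dermatan epimerase that it works with, at -0.17, 0.01 and 0.04. Ust, which sulfates uronic acid, was at 0.13, 0.17 and 0.21, and Chst7, a relative of Chst3, at 0.15, 0.08 and 0.07.

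Every sulfotransferase draws on PAPS, the activated sulfate made by Papss1 and Papss2, and Ugdh supplies UDP-glucuronic acid. Papss2, the form whose loss causes skeletal defects in mice, stood at 3.73 in Miglustat cells, 3.36 in D-PDMP cells and 3.25 in D-PPMP cells, against 3.49 in Control, each ± 0.14. Miglustat was high and D-PPMP low, 0.48 apart. The ratios were 0.24, -0.13 and -0.24, each ± 0.20, and the other probe gave 0.28, -0.11 and -0.40. Papss1 was at 0.00, 0.02 and 0.09. Ugdh stood at 4.83, 4.98 and 5.04 in that order, against 5.00 in Control, each ± 0.14, and lay within its error throughout.

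**Figure D3:**
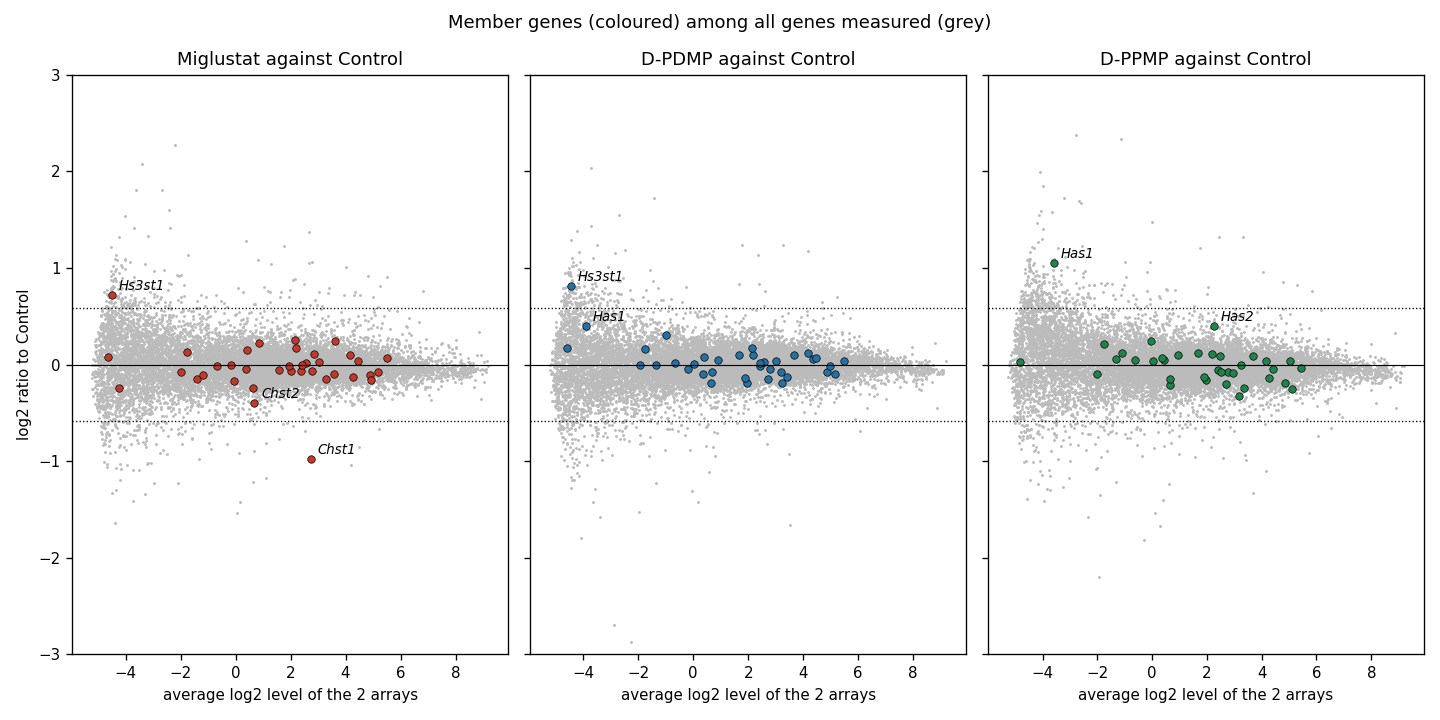
Log2 ratio to Control (vertical axis) against the average log2 level of the 2 arrays (horizontal axis) for all genes well above background on both, in 1 panel per inhibitor. Grey points are all genes, coloured points the members, and dotted lines stand at 1.5-fold. Chst1 stands clear of the members around it in the Miglustat panel at -0.98, while Hs3st1 and Has1 lie on the left, where the grey points spread most.

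The 3 compounds are set side by side here, and no difference between compounds was tested. Their doses differed, so what is due to the compound cannot be told apart from what is due to the dose. The members whose levels on the 3 inhibitor arrays lay farthest apart, among those well above background on all 4 arrays, were Has1 with a gap of 1.30, Chst1 with 0.97, Hs3st1 with 0.79, Chst2 with 0.50 and Papss2 with 0.48. How many of all genes lay as far apart was not counted. For the pair that differs in the acyl chain, Chst1 stood at -0.08 with D-PDMP at 10 µM and at 0.00 with D-PPMP at 1.0 µM, Has1 at 0.40 and 1.05, and Hs3st1 at 0.82 and 0.03. Has1 and Hs3st1 were read by dim spots. With normexp correction the same pair of ratios was 0.06 and 0.21 for Has1, and 0.01 and -0.04 for Hs3st1.

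Beyond the members, the pathway list held 27 other genes of synthesis, sulfation and transport, of which 26 had a probe and 17 were well above background on some array. None of the 16 measured was 1.5-fold away from Control with any inhibitor, and their medians were 0.01, 0.08 and -0.02. The counts of this list and of the others in the pathway are to be read against the 2.68%, 2.54% and 3.44% of all genes that far away, and do not set these lists apart. Hs3st6, a further heparan sulfate sulfotransferase, was not well above background in Control and was dim on the other arrays. Its ratios were 0.49 ± 0.43, 0.53 ± 0.43 and 0.90 ± 0.41 with Miglustat, D-PDMP and then D-PPMP. The bounds, which leave out this error, were 1.27-fold, 1.31-fold and 1.70-fold higher in the same order. Of 18 breakdown genes, 17, 18 and 18 were measured, with medians of 0.00, 0.02 and -0.01. Cemip, a hyaluronan-binding protein needed for hyaluronan depolymerisation in fibroblasts, was at 0.75, 0.23 and -0.26, and was the breakdown gene past 1.5-fold, with Miglustat. Its levels were 4.74, 4.22 and 3.73 in that order, against 3.99 in Control. The list of 22 core proteins, which counts the hyaluronan receptor Cd44, had medians of 0.02, -0.04 and -0.05 over 18, 18 and 16 measured genes. Past 1.5-fold among them was Cspg5, a chondroitin sulfate proteoglycan known from brain, at 0.40, 0.02 and 0.84. Its spot was dim, at a level of -3.66, -4.03 and -3.21, against -4.06 in Control.

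**Figure D4:**
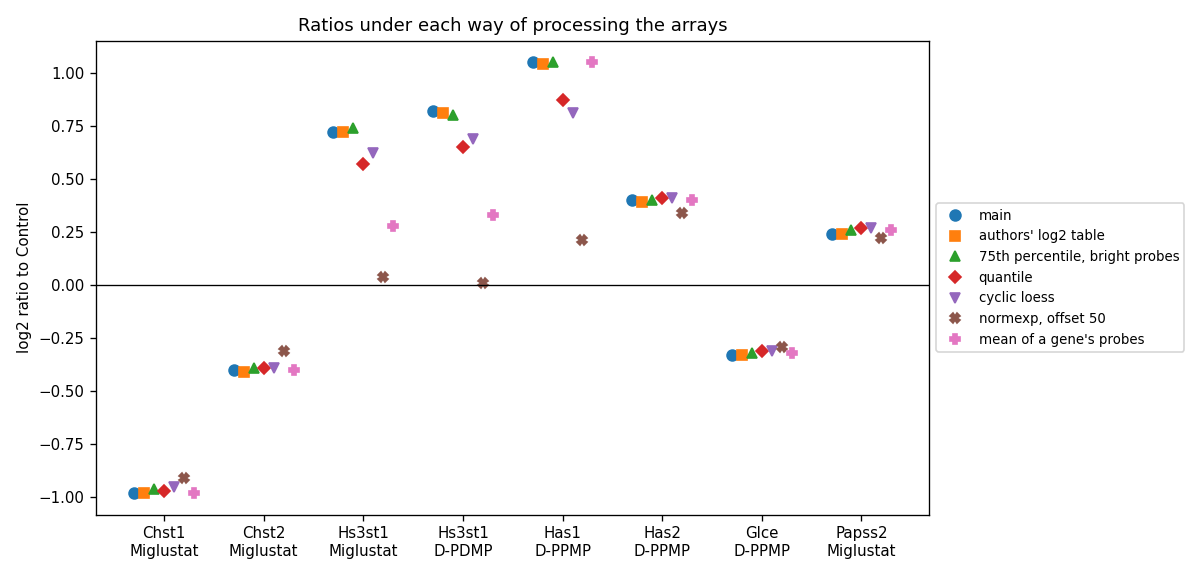
Log2 ratio to Control (vertical axis) of 8 gene and inhibitor combinations under 7 ways of processing the arrays, 1 symbol each. Chst1 with Miglustat ranges from -0.98 to -0.91 and Has2 with D-PPMP from 0.34 to 0.41, whereas Hs3st1 and Has1, read by dim spots, come close to 0 or to 0.21 with normexp.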

How the data were processed

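Total RNA of 4 MC3T3-E1 cultures, 1 per group, was labelled with Cy3 for one-colour arrays, per the labels. Each deposited scanner file gives intensity values per spot, made with Agilent Feature Extraction 12.1.1.1, per the submitters' processing notes and the file headers. The processed signal is corrected within an array and not normalized between arrays. The authors' deposited log2 table differs by less than 0.02 from log2 of that signal minus the array's 75th percentile for at least 99.99% of probes on each array, so both are on the same scale, centring and direction. The medians of its columns were -4.00, -4.00, -3.89 and -4.10 with Miglustat, D-PDMP, D-PPMP and in Control.

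Outlier spots (67, 66, 85 and 70, in that order) and control spots were left out, signals were floored at 1, and the 75th percentile over 56605 probes was subtracted. Accessions matched 32994 probes (58.3%) to 22911 genes of RefSeq assembly GRCm38.p6, and a gene took its brightest probe. The array design names build mm9, so no positions of probes are given. No spot was saturated. Where a gene was not well above background on 1 array of a comparison, a bound on the fold was computed. It was taken against the higher of the dim probe's own signal and the lowest signal well above background. The bound leaves out the scanner software's error, and where the dim probe's own signal is the higher it equals the ratio itself. R 4.3.3 with limma 3.58.1 and Python 3.11.15 were used, and the counting of calls was tested on simulated data. The genes changed in that simulation had an average level above -3, so it did not cover calls as dim as those of Hs3st1 and Has1. Members, lists and thresholds were chosen with earlier results of these data known. Levels on every array are given for the 18 members at least 1.5-fold from Control or among the 2 farthest from Control in their role group.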

Additional observations from a re-analysis of the deposited data

How the results depend on the processing

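Chst1 with Miglustat stayed at least 1.5-fold lower under each alternative run, while the calls that rest on dim spots were lost under some. The median of the list ranged over the alternatives between -0.05 and -0.03 with Miglustat, between -0.01 and 0.02 with D-PDMP and between -0.03 and 0.02 with D-PPMP, so with D-PDMP and D-PPMP its sign is not settled. The Chst1 ratio lay between -0.98 and -0.91, Chst2 with Miglustat between -0.41 and -0.31, Has2 with D-PPMP between 0.34 and 0.41 and Glce with D-PPMP between -0.33 and -0.29. No ratio past 1.5-fold changed sign. With normexp correction, whose offset of 50 shrinks the ratios of dim spots, the count of members at least 1.5-fold higher was 0 for each of Miglustat, D-PDMP and D-PPMP, in place of 1. Over all genes, normexp left 38, 10 and 21 higher and 15, 23 and 38 lower, in place of 223, 189 and 322 higher and 157, 170 and 167 lower. With quantile normalization the higher count with Miglustat was 0, since Hs3st1 lay at 0.57, and over all genes the split turned to 139, 116 and 145 higher and 201, 264 and 361 lower. Under cyclic loess it was 157, 116 and 138 higher and 208, 253 and 348 lower, with no change in the count of members at 1.5-fold. Has1 with D-PPMP was short of 2-fold under quantile and cyclic loess normalization. With the mean of a gene's probes the higher count was 0 with Miglustat and 0 with D-PDMP, because the dark probe of Hs3st1 enters. Without a filter on dim probes it was 2 with Miglustat, adding Hs3st3b1, and the lower count was 1 with D-PPMP, from Csgalnact1, while over all 22911 genes 1945 were then higher with Miglustat and 887 lower with D-PPMP. At 2-fold the higher count was 0 with Miglustat and 0 with D-PDMP, and the lower count 0 with Miglustat. The files hold no mean spot signal, so normexp ran on the median signal, a choice made after seeing the data. No paired analysis was possible because each group has 1 array. The number of arrays limits the precision of all values.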

Other observations

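The glypicans, core proteins that carry heparan sulfate, were looked at as a family after their values were seen. Gpc1 stood at 6.70 in Miglustat cells, 6.42 in D-PDMP cells and 6.27 in D-PPMP cells, against 6.75 in Control, with ratios of -0.05, -0.33 and -0.48, each ± 0.20. Gpc4 was at 0.02, -0.28 and -0.36 and Gpc6 at 0.18, -0.14 and -0.47 in the same order. Gpc3 was at -0.09 and -0.22 with Miglustat and D-PDMP. With D-PPMP it was not well above background, at -0.67 ± 0.49, and its bound of 1.35-fold lower leaves out that error. Gpc5, with a dim spot, went otherwise, at -0.37, -0.34 and -0.02, and Gpc2 did not reach well above background on any array. Over the core protein list, 10 of 18, 5 of 18 and 5 of 16 measured genes exceeded Control in the order of the inhibitors above, where 44.5%, 49.6% and 48.5% of all genes did.

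Of the 40 members, 30 were read by 1 probe and 10 by more, and 8 had at least 2 probes well above background on all 4 arrays. For these 8 the widest disagreement between probes of a gene in the ratio to Control had a median of 0.14. It was smallest in Hs6st2 at 0.03 and largest in Chst11 at 0.56 with D-PDMP, followed by Ndst1 at 0.29 with D-PPMP and Glce at 0.23 with Miglustat.

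The ratio of observed to expected CpG in the upstream window, seen after the array values, had a median of 0.72 over the 32 members with an entry. It was lowest in Chst1 at 0.06 and next lowest in Has1 at 0.20, while Hs3st1, also past 1.5-fold with an inhibitor, stood at 0.71 and Chst2 at 0.86. The median over the 12616 genes above background with an entry was 0.67. This is a description of 32 windows and no test was made.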
